A study of Mus musculus with 6 samples.

Results

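The AP-1 and immediate early genes described here were 10 genes, Fos, Fosb, Fosl2, Jun, Junb, Jund, Egr1, Egr2, Ier2 and Nr4a1, out of 13891 tested genes. They were measured in regulatory T cells (Tregs) sorted as CD4-positive, CD25-high cells from the spleen. A probe set was taken where the platform annotation gave it exactly 1 gene symbol and that symbol was one of the 10, which gave 60 exon-level probe sets of 269751 on the array, between 3 (Junb, Ier2) and 10 (Egr2) per gene. The 6 donors were untreated male mice aged 45 weeks kept free of specific pathogens. Of these, 3 carried DJ-1-/- (KO) and 3 were littermates with DJ-1+/+ (WT), with 1 Affymetrix Mouse Gene 2.0 ST array per mouse. DJ-1 is the protein encoded by Park7. The labels name no Cre or transgene and do not say how the null allele was made or which other cells lacked DJ-1.

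AP-1 is a dimer of basic leucine zipper proteins, usually 1 of the FOS family (Fos, Fosb, Fosl2) with 1 of the JUN family (Jun, Junb, Jund); JUN proteins can also pair with each other. Genes of this kind are called immediate early because serum, growth factors or antigen receptor signals induce them within minutes through existing factors, mainly serum response factor with its ternary complex partners and CREB. In T cells, AP-1 acts with NFAT downstream of the T cell receptor, whereas Egr2 and Nr4a1 are read as reporters of receptor signalling. Several of these genes are also known to be induced while tissue is dissociated and cells are sorted.

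In the KO Tregs Fos, Fosb and the 3 JUN genes were higher and Fosl2, Egr1 and Egr2 were lower than in WT, and none of the 10 differences passed the test. Levels are given as the median over a gene's probe sets of log2(intensity + 16), and differences are KO minus WT on that scale, which understates differences of dim probe sets. The differences ran from -0.44 (Egr2) to 0.55 (Fosb), with a median of 0.04, against a median of -0.05 over all tested genes. The count of members at a limma adjusted p of 0.05 or less was 0 of 10. Over all tested genes this share was 0.274% (38 of 13891, of which 37 were lower in KO), with 0.0072% higher. With median centring 45 of 54 such genes were lower and with quantile normalization 48 of 55. Differences were above 0 in 5 of the 10 members and in 40.3% of tested genes. At an unadjusted p of 0.05, 3 members were higher (Fos, Fosb and Jun) and 0 lower, against a background of 2.99% of genes higher and 7.67% lower (10.7% in either direction).

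In 5 members, Fos, Fosb, Jun, Junb and Jund, the KO arrays all lay above the WT arrays, and in Egr1 they all lay below. Over all tested genes, 6.1% had all KO arrays above all WT arrays and 11.3% the reverse (17.4% together). In Fosl2, Egr2, Ier2 and Nr4a1 the groups overlapped. The 10 genes were named with earlier results of these data known, so these counts describe the genes and are not independent evidence.

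**Figure D1:**
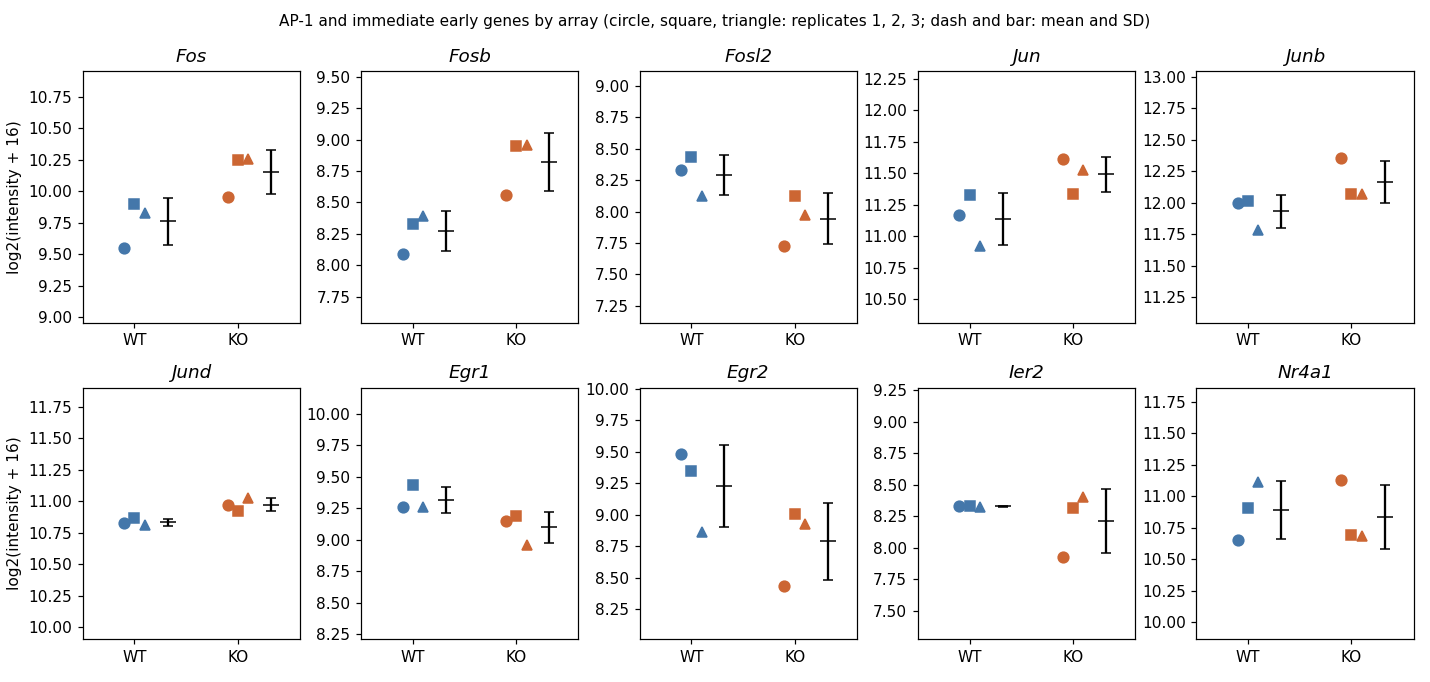
Level of each of the 10 genes on each array, as the median over its probe sets of log2(intensity + 16), with WT in blue and KO in orange and every panel spanning 2 log2 units. The marker shape gives the replicate number, which was not treated as pairing the mice. The dash with its bar is the group mean with its SD (n = 3). KO arrays sit above WT arrays in Fos, Fosb, Jun, Junb and Jund, and below them in Egr1.

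The arrays measured what the labels say of genotype and cell type, but they were not all equally alike. Park7 was between 9.27 and 9.70 in WT and between 5.71 and 6.06 in KO, a difference of -3.57 (SE 0.16, limma adjusted p = 2.06e-05). All 7 Treg markers were above the filter on low values. Foxp3, which fixes Treg identity, averaged 12.66 (SD 0.02) on WT arrays and 12.72 (SD 0.03) on KO arrays, and Il2ra, which encodes CD25, differed by -0.0013 (SE 0.13, limma adjusted p = 0.998). Of the 7, Foxp3 alone was above 0 and the other 6 were below, with no overlap for Ikzf2 (-0.20) and Cd3e (-0.19); limma called 0 of the 7. Their summed intensity was 31988 to 32339.9 in WT and 29956 to 31360.4 in KO, without overlap, and its part in the differences of the 10 genes was not tested. The median intensity per array ran from 88.6 to 100.2. KO replicate 1 had the lowest median, and its correlation with the remaining 5 averaged 0.951. This average was 0.957 for WT replicate 3 and 0.963 to 0.964 for the other arrays. Values without KO replicate 1 are given below where they differ. The p-values rest on 3 mice per group, and an exact permutation test of 3 against 3 cannot go below 0.10. Precision is limited by there being 6 arrays.

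Among the FOS genes, Fosb and Fos were the members with the highest differences. Fosb, whose truncated splice form is known to be long-lived, was at 8.09, 8.33 and 8.39 in WT replicates 1 to 3 and at 8.56, 8.95 and 8.96 in KO replicates 1 to 3. The lowest KO array stood 0.17 above the highest WT array, with KO replicates 2 and 3 close together at the top. The difference was 0.55 (SE 0.16, 95% interval 0.19 to 0.91), a 1.47-fold higher level in KO with an interval of 1.14 to 1.88, and the limma adjusted p was 0.273. Of the tested genes 99.4% had a lower difference than Fosb.

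Fos, the founding FOS gene and a classical target of serum response factor, was at 9.55, 9.90 and 9.83 in WT and 9.96, 10.25 and 10.26 in KO. KO replicate 1 lay just above WT replicate 2, 0.05 apart, and the other KO arrays lay clear of all WT arrays. The difference was 0.39 (SE 0.16, 95% interval 0.04 to 0.75), or 1.31-fold, with a limma adjusted p of 0.411. Of the tested genes 97.5% had a lower difference.

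Fosl2 encodes Fra-2, a FOS protein without the strong activation domain of Fos and Fosb, and it differed the other way. It was at 8.33, 8.43 and 8.12 in WT and 7.73, 8.13 and 7.97 in KO. The groups touched, because KO replicate 2 lay just above WT replicate 3, and KO replicate 1 was the lowest array. The difference was -0.35 (SE 0.16, 95% interval -0.70 to 0.0012, limma adjusted p = 0.469), and -0.24 without KO replicate 1.

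By the median of their probe sets, all 3 JUN genes were higher on every KO array than on any WT array. Jun, the main partner of Fos, was at 11.16, 11.33 and 10.92 in WT and 11.61, 11.33 and 11.53 in KO. WT replicate 2 and KO replicate 2 were nearly level, 0.0046 apart, so the separation of the groups was narrow. The difference was 0.35 (SE 0.16, 95% interval 0.0036 to 0.70), 1.28-fold, with a limma adjusted p of 0.461.

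Junb, needed by Tregs for their effector programme, was at 12.00, 12.02 and 11.78 in WT and 12.35, 12.07 and 12.07 in KO. KO replicate 1 was the highest array and the other KO arrays stood about level with WT replicates 1 and 2. The difference was 0.23 (SE 0.15, 95% interval -0.10 to 0.56, limma adjusted p = 0.617), 0.14 without KO replicate 1 and 0.10 with the mean of the probe sets. On every array the median was the value of probe set 17511262, so the separation of the groups is that of this probe set alone. The other Junb probe sets, 17511261 (0.09) and 17511260 (-0.03), overlapped between the groups.

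Jund, which is expressed at a steady level in many resting cells, was at 10.82, 10.86 and 10.81 in WT and 10.97, 10.92 and 11.03 in KO. The spread within groups was the smallest of the 6 FOS and JUN members (SD 0.03 and 0.05), and the groups stood 0.06 apart. On KO replicate 1 the median fell on other probe sets than on the remaining arrays, so the KO SD is not that of fixed probe sets. Probe set 17502006 was at 2065 there, against 3059 or more on the other arrays. The difference of 0.14 (SE 0.13, 95% interval -0.14 to 0.43) had a limma adjusted p of 0.721, and it was 0.08 with the mean of the probe sets and 0.24 with median centring.

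The zinc finger genes Egr1 and Egr2 were lower in KO. Egr2, a calcineurin-dependent target of the T cell receptor that restrains T cell activation, was at 9.48, 9.35 and 8.86 in WT and 8.44, 9.01 and 8.93 in KO. KO replicate 1 was the lowest array, and WT replicate 3 lay among the KO arrays. The difference was -0.44 (SE 0.21, 95% interval -0.91 to 0.02, limma adjusted p = 0.500). It was -0.27 without KO replicate 1 and -0.63 without WT replicate 3.

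Egr1, induced by mitogen and receptor signals through ERK, was at 9.26, 9.44 and 9.26 in WT and 9.15, 9.18 and 8.96 in KO. No array of one group reached the other, with 0.07 between them. The difference was -0.22 (SE 0.14, 95% interval -0.53 to 0.09, limma adjusted p = 0.614), and -0.12 with median centring.

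Ier2 and Nr4a1 had no settled direction. Ier2, a small nuclear immediate early protein, was at 8.33 on each WT array (SD 0.0029) and at 7.92, 8.32 and 8.40 in KO. The median fell on different probe sets on different arrays, so this SD understates the spread. In WT the 3 probe sets ran from 7.98 to 8.33, 8.22 to 8.33 and 8.51 to 8.83. The difference of Ier2 was -0.12 (SE 0.16, 95% interval -0.47 to 0.24, limma adjusted p = 0.824). It rested on KO replicate 1, the lowest array, and was 0.03 without that array. Nr4a1, the orphan receptor Nur77 whose transcript follows T cell receptor signal strength, was at 10.66, 10.90 and 11.11 in WT and 11.13, 10.69 and 10.69 in KO. Its difference of -0.05 (SE 0.18, 95% interval -0.45 to 0.34, limma adjusted p = 0.939) turned positive in 4 alternative settings, among them leaving out WT replicate 3 (0.056) and median centring (0.048).

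**Figure D2:**
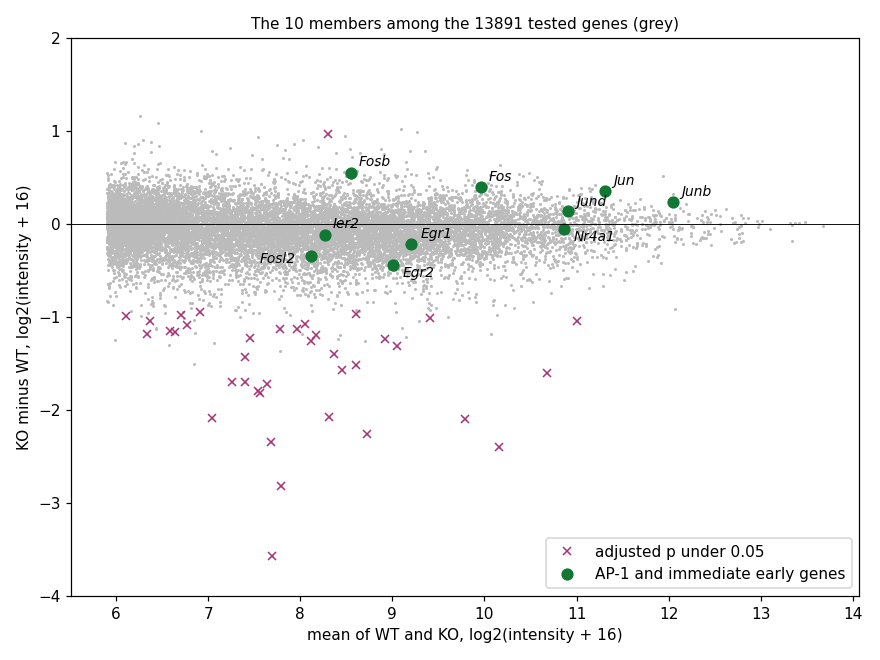
Difference between KO and WT (y axis) against the mean level (x axis), both in log2(intensity + 16), for the 13891 tested genes in grey, the 38 that passed an adjusted p of 0.05 as crosses and the 10 AP-1 and immediate early genes in green. The 10 lie between -0.44 and 0.55, and none is among the crosses.

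The single probe sets of each gene show how far its difference was shared among them. Their places in the exons were not analysed here. Probe sets of a gene read the same RNA and are not replicates. Differences were above 0 in 30 of the 60 and in 47% of all probe sets. None of the 60 probe sets passed an adjusted p of 0.05 when limma was run over all 269751 probe sets, of which 0.00111% passed (3 probe sets). The lowest adjusted p among the 60 was 0.527. At an unadjusted p of 0.05, 13 of the 60 differed, against 7.59% of all probe sets. In 13 of the 60 every KO array was above every WT array and in 9 every KO array was below, against backgrounds of 6.17% and 7.64%. These backgrounds cover all probe sets without a filter on level, with a median intensity of 88.6 to 100.2 per array. Of the 60, 57 averaged an intensity of 100 or more, so the sets differ in level.

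All 8 Fos probe sets and all 6 Fosb probe sets had positive differences, from 0.13 to 0.61 in Fos and from 0.27 to 0.62 in Fosb. The groups did not overlap in 3 probe sets of each. In Fos, probe set 17277394 had intensities of 965, 1154 and 1002 in WT and 1303, 1791 and 1709 in KO, a difference of 0.61 (SE 0.18). Its 3 KO intensities all lay above the WT arrays, with KO replicate 1 nearest to them. In Fosb, probe set 17487213 was at 253, 222 and 247 in WT and at 288, 432 and 432 in KO (0.62, SE 0.20). KO replicate 1 was again the lowest KO array. All 6 Fosl2 probe sets were lower in KO, from -0.63 to -0.23, with 1 free of overlap.

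Of the 5 Jun probe sets 4 were higher on every KO array, by 0.33 to 0.46. The most marked was 17427316, at 1681, 1833 and 1846 in WT and 2469, 2517 and 2386 in KO (0.46, SE 0.12). Here the KO arrays were tightly grouped and well clear of WT. The fifth, 17427313, differed by -0.13, with KO replicate 1 at 571 (against 846 or more on the other arrays). Junb had 2 of 3 and Jund 5 of 6 probe sets higher in KO, each with 1 free of overlap.

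In Egr2, 8 of 10 probe sets were lower in KO and 5 of these did not overlap. Probe set 17233999 was at 2696, 2343 and 2117 in WT and 1597, 1510 and 1279 in KO, a difference of -0.70 (SE 0.16). Every KO array, KO replicate 1 included, was well below WT there. The 5 brightest probe sets 17233997, 17233998, 17233999, 17234000 and 17234002 differed by -1.12, -0.71, -0.70, -0.49 and -0.55. The lowest of these, 17233997, was at 982, 975 and 839 in WT and 159, 590 and 763 in KO, and KO replicate 1 was far below the other KO arrays (SE 0.56). The dimmest, 17233995, went the other way by 0.40 at intensities of 35.3 to 69.7. Egr1 had 4 of 5 probe sets lower, 2 without overlap, and its brightest, 17349518, was at 5044, 5512 and 5410 in WT and 4737, 4066 and 3984 in KO (-0.32, SE 0.14). KO replicate 1 was the KO array nearest to WT in that probe set.

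In Nr4a1, 7 of 8 probe sets were lower, but 6 of the 8 lay between -0.11 and 0.05 and another at -0.14. The remaining one, without overlap, was 17315186, at 666, 788 and 792 in WT and 597, 584 and 594 in KO (-0.33, SE 0.14). Ier2 had 2 of 3 probe sets lower, by 0.25 or less. KO replicate 1 was the lowest array in 12 of the 60 probe sets, KO replicate 3 in 13 and WT replicate 1 in 15. The 12 lay in Egr2, Fosl2, Ier2, Jund, Jun, Fosb and Nr4a1.

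**Figure D3:**
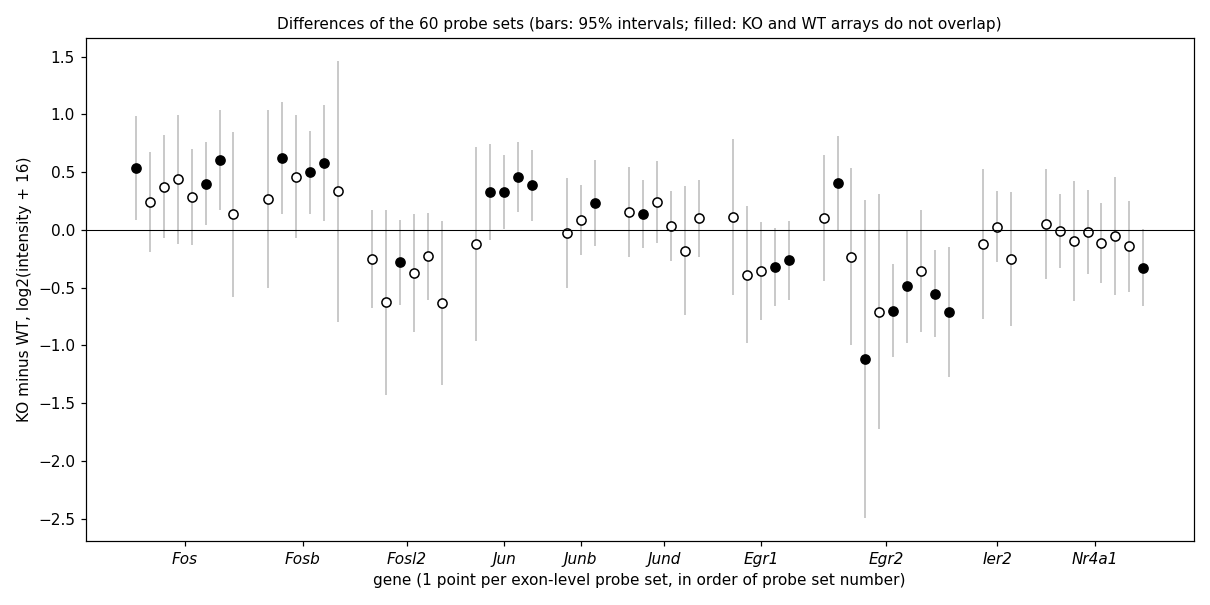
Difference between KO and WT in log2(intensity + 16) for each of the 60 probe sets, grouped by gene, with 95% intervals from limma as bars; filled points are probe sets in which the 3 KO and 3 WT arrays do not overlap. All Fos and Fosb points lie above 0, all Fosl2 points below it, and 8 of 10 Egr2 points below it.

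Leaving out any 1 of the 6 arrays kept the sign of the difference in 8 of the 10 members, Ier2 and Nr4a1 being the exceptions. The range over these 6 fits was 0.29 to 0.49 for Fos, 0.46 to 0.68 for Fosb, 0.24 to 0.45 for Jun and -0.63 to -0.27 for Egr2. No member passed an adjusted p of 0.05 in any of the 6 fits.

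**Figure D4:**
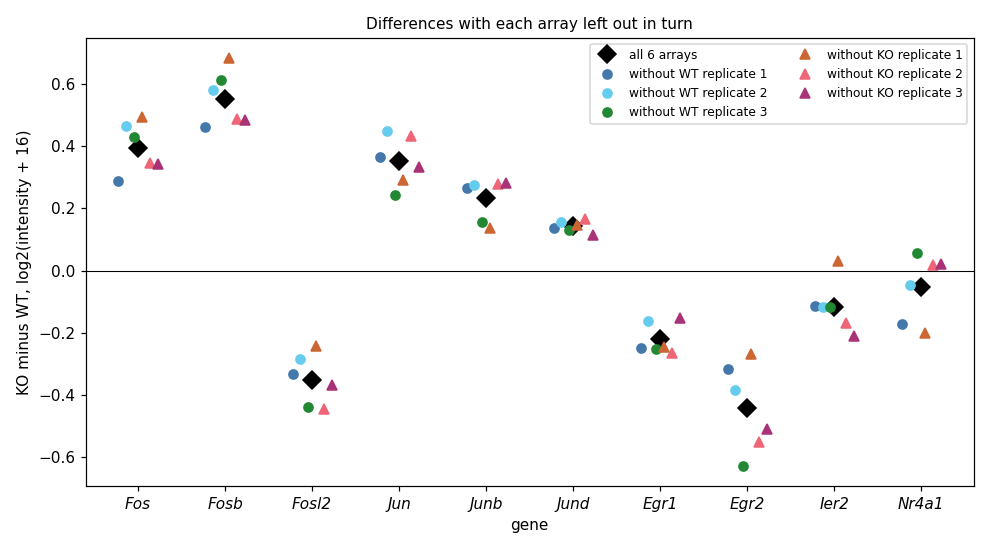
Difference between KO and WT in log2(intensity + 16) for each gene with all 6 arrays (black diamonds) and with each array left out in turn (circles for WT, triangles for KO). The points of Fos, Fosb, Jun, Junb and Jund stay above 0 and those of Fosl2, Egr1 and Egr2 below it, while those of Ier2 and Nr4a1 lie on both sides.

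Promoter sequences are shown for Fos, Fosb and Jun, the members whose difference was highest, and for Egr2, whose difference was lowest. They are RefSeq windows on GRCm38.p6 from 250 bases before to 50 after a transcription start, printed 5′ to 3′ along the gene. RefSeq windows of 8 of the 10 genes were used, and no window of Egr1 or Ier2 was searched. Capitals mark matches on either strand to 5 motifs. These were TGACNTCA, the full cAMP response element with 1 free base; TGACG, the core of that element, which lies within the full form when the free base is G; TGANTCA, the AP-1 site; the CArG box of serum response factor; and GCGTGGGCG, the EGR site.
Fos, chr12:85473640-85473939, plus strand: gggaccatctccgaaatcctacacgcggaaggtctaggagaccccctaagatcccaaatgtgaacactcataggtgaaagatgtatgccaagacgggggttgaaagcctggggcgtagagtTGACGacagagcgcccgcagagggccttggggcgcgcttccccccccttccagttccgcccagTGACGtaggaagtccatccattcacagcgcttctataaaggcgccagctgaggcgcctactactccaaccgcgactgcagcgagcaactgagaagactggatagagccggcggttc
Fosb, chr7:19309996-19310295, minus strand: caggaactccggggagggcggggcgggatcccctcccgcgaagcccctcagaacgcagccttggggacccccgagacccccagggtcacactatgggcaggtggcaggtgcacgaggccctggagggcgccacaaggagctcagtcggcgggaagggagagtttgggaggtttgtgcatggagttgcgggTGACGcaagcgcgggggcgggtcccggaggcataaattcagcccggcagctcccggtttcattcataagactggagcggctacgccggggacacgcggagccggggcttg
Jun, chr4:95052173-95052472, minus strand: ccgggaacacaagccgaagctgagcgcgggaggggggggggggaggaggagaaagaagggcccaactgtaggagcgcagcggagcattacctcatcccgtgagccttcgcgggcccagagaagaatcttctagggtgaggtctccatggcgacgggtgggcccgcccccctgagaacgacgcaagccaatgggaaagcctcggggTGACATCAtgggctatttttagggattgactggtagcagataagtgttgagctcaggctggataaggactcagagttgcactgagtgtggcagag
Egr2, chr10:67537619-67537918, plus strand: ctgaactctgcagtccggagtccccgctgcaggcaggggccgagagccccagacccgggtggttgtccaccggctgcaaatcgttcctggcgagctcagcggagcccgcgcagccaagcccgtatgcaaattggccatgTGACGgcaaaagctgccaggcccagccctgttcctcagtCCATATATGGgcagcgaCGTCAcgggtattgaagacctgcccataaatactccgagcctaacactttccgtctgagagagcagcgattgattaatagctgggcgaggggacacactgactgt

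The core TGACG was found in Fos at -129 and -66, in Fosb at -60 and in Egr2 at -111 and -55, counted from the start site. The Jun window held TGACATCA at -45 and no core. It matched the full element only through the free base, which was A and not G. The Egr2 window, 1 of 5 RefSeq starts of that gene and shown as one that holds both kinds of match, also held a CArG box, CCATATATGG, at -72. The core was in 7 of the 12 windows of the members, 3 of them overlapping windows of Egr2 and the others of Fos, Fosb, Junb and Nr4a1, against 20.8% of 32851 windows of all genes. The full element was in 1 of the 12 member windows (Jun) and in 8.83% of all windows. The CArG box was in 4 of the 12, all of Egr2, and in 1.63% of all windows. The AP-1 site (7.81% of all windows) and the EGR site (0.612%), as spelled here, were in 0 of the 12. These counts leave out Egr1 and Ier2. Sites outside these windows were not searched. Of the genes with the core, Fos, Fosb and Junb were higher in KO, Egr2 was lower and Nr4a1 had no settled direction. The part of the core in these differences was not tested. These matches are letters in a window of 300 bases and say nothing of binding.

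Some members had like profiles across the arrays. The likeness of 2 genes was measured as the root mean square difference of their levels over the 6 arrays after centring each gene. Of the 45 pairs of members, Fos and Fosb were nearest (0.095 log2 units), with KO replicates 2 and 3 at the top and WT replicate 1 at the bottom of both. Jun and Junb came next (0.105), with KO replicate 1 at the top and WT replicate 3 at the bottom. Junb and Jund followed (0.129), both lowest on WT replicate 3. Fosl2 and Egr2 (0.145) shared KO replicate 1 as their lowest array, and Fosb and Egr2 were farthest apart (0.566).

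Among the 13881 tested genes that are no members, 27 were nearer to Fos than Fosb was, 65 were nearer to Jun than Junb, and 902 nearer to Fosl2 than Egr2. The 5 nearest to Fos were Apom (0.044), Ankrd23 (0.049), 4930481B07Rik (0.059), 4933407I05Rik (0.062) and Ppp1r13b (0.066), against a median of 0.307 over all genes. The 5 nearest to the median profile of the members were Crip2 (0.022), A330040F15Rik (0.025), Acly (0.026), Fbxl20 (0.026) and Slc24a6 (0.028). With 6 arrays such nearness is a description of these arrays.

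The rest of the pathway was read from lists of genes that are no members. With heat shock genes included, the lists held 93 tested genes, and limma put 0 of them under an adjusted p of 0.05. At an unadjusted p of 0.05, 4 were higher and 5 lower, where all tested genes gave 2.99% higher and 7.67% lower. Of the other AP-1 family genes, 14 of 16 were tested, 7 with differences above 0 and 7 below, with a median of 0.0052. Batf, which pairs with JUN proteins and supports effector Tregs, was at 10.11, 10.09 and 9.95 in WT and 9.24, 9.58 and 9.10 in KO. All KO arrays were far below WT, and the difference of -0.74 (SE 0.16) had a limma adjusted p of 0.123, and of 0.0391 with array weights. Bach2, which competes with AP-1 for its sites and restrains effector genes, differed by 0.51 (SE 0.21, adjusted p = 0.419), or 0.30 with the mean of its probe sets, and Maf by -0.40 (SE 0.17, adjusted p = 0.440), or -0.23 without KO replicate 1.

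Of 30 other immediate early genes, all were tested, 17 above and 13 below 0, with a median of 0.03. The 3 with the smallest p were Ier5l (-0.60, SE 0.18, adjusted p = 0.270), the G protein regulator Rgs1 (-0.50, SE 0.18, adjusted p = 0.365) and the quiescence factor Klf2 (0.35, SE 0.17, adjusted p = 0.501). Rgs1 differed by -0.32 without KO replicate 1. Egr3, which acts with Egr2, differed by -0.35, and the phosphatase Dusp1 by 0.20. The inhibitory partner Nab2, which EGR proteins bind, differed by 0.02. These last 3 were named outside the rule, after their values were seen.

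Upstream of the members, 13 of 14 genes of serum response factor, its partners and CREB were tested, 9 of them above 0, with a median of 0.10. Mef2d (0.42, adjusted p = 0.355), Mkl2 (0.28, adjusted p = 0.521) and Elk1 (0.36, adjusted p = 0.542) had the smallest p, and with the mean of probe sets Mkl2 was at -0.015 and Elk1 at 0.15. Elk1 was at 0.20 without KO replicate 2. Of 20 MAP kinase pathway genes 17 were tested, with a median of -0.07; Rps6ka1 differed by 0.37 (adjusted p = 0.402), Map2k4 by -0.42 (0.551, and -0.14 without KO replicate 1) and Nras by 0.24 (0.565). With the mean of probe sets Rps6ka1 was at 0.13, Map2k4 at -0.20 and Nras at 0.11. All 10 calcineurin and NFAT genes were tested, with a median of 0.07 and differences from -0.17 to 0.21. The 3 with the smallest p were Rcan1 (0.20, adjusted p = 0.712), Ppp3cb (-0.17, adjusted p = 0.721) and Ppp3r1 (0.21, adjusted p = 0.744), and all 3 moved with single arrays. Dropping WT replicate 3 put Rcan1 at 0.048, Ppp3cb at -0.27 and Ppp3r1 at 0.34. Dropping KO replicate 1 put Ppp3cb at -0.094 and Ppp3r1 at 0.020. Dropping WT replicate 2 put Rcan1 at 0.30 and Ppp3r1 at 0.068, while Ppp3cb was at -0.11 when WT replicate 1 was dropped and Rcan1 at 0.13 when KO replicate 2 was. With the mean of probe sets Rcan1 was at 0.042, Ppp3cb at -0.27 and Ppp3r1 at -0.088.

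**Figure D5:**
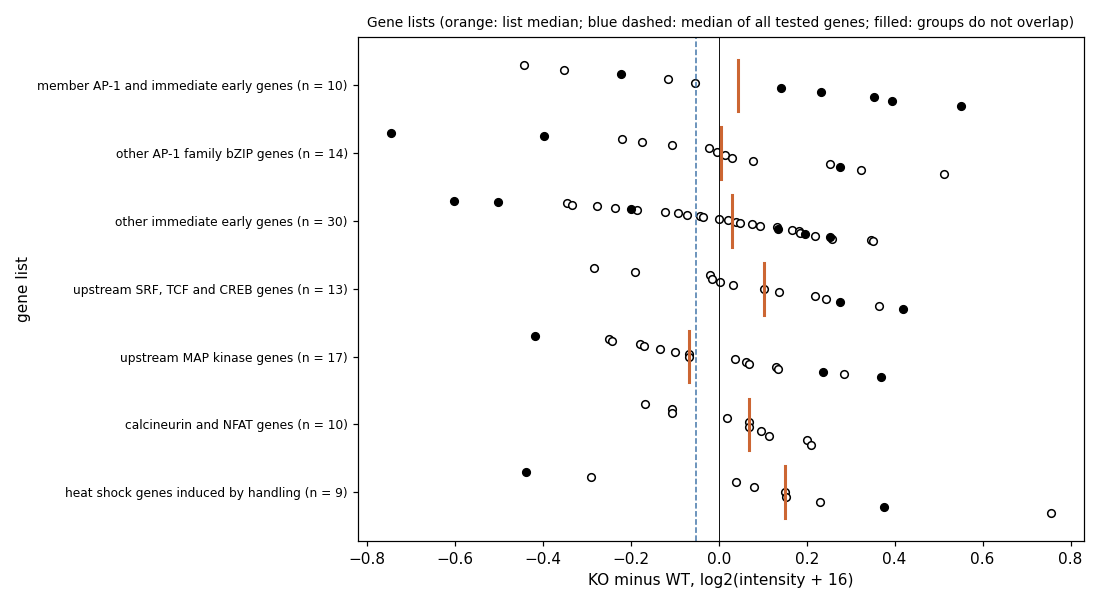
Differences between KO and WT in log2(intensity + 16) of the tested genes of each list, 1 point per gene in order of size; the orange bar is the list's median, the dashed line the median of all tested genes (-0.05), and filled points are genes whose groups do not overlap. Every list spreads over both sides of 0, and the medians lie between -0.07 and 0.15.

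Heat shock genes, which handling of cells can induce together with Fos and Jun, were measured beside the members. Of 9 tested, 7 had differences above 0, with a median of 0.15, and none passed. Hsp90aa1 was at 9.23, 9.38 and 9.48 in WT and 9.64, 9.81 and 9.77 in KO (0.38, SE 0.14, adjusted p = 0.365), with no overlap, and differed by 0.17 with the mean of its probe sets. Hsph1 differed by 0.75 (SE 0.37, adjusted p = 0.515), with KO replicate 2 at 10.13 and the other 5 arrays between 8.01 and 9.18, and its difference was 0.33 when KO replicate 2 was dropped and 0.50 when WT replicate 1 was. Bag3 went the other way (-0.44, SE 0.14, adjusted p = 0.287). The summed intensity of the 10 heat shock genes measured was 9024 to 9334 in WT and 7791 to 12410.2 in KO, the lowest on KO replicate 1. Its part in the differences of Fos and Jun was not tested.

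Summed levels of some marker lists of other cells also differed between the groups, and in bulk RNA fewer cells of a type and less RNA per cell cannot be told apart. The summed intensity of 9 B cell markers was 5385 to 5742 in WT and 3452 to 4225 in KO, with Pax5 and Blk under the filter. Within it the antigen presentation genes H2-Aa (-1.26, limma adjusted p = 0.0406) and H2-Ab1 (-1.24, 0.0343) fell, and Cd74, also of that pathway, differed by -0.67 without overlap. Cd79a (-0.23), Cd79b (-0.17) and Cd22 (-0.03), of the B cell receptor complex and its coreceptors, overlapped, and Faim3 (Fcmr) was higher by 0.79 without overlap (adjusted p = 0.128). The summed intensity of 9 macrophage and monocyte markers was 530 to 817 in WT and 402 to 448 in KO, with Lyz2, Emr1, Cd14 and Mrc1 under the filter. All 5 tested were below 0, most of them dim. The adhesion gene Vcam1 fell (-1.15, limma adjusted p = 0.0343). Csf1r (-0.54) and C1qc (-0.47) were lower without overlap, and C1qb (-0.35) and C1qa (-0.08) overlapped. The sum of 8 NK and CD8 T cell markers was 1306 to 1367 in WT and 988 to 1196 in KO, with Klrd1 and Gzma under the filter. There Ncr1 (-0.85) and Cd8b1 (-0.30) were lower without overlap, Klrb1c (0.28) was higher without overlap, and Prf1, Gzmb and Cd8a overlapped. Plasma cell (5 genes), neutrophil (7), dendritic cell (6) and erythroid and platelet markers (5) overlapped between groups. The part of these cells in the differences of the 10 genes was not tested.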

How the data were processed

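Per the labels, the authors deposited 1 intensity per exon-level probe set and array, summarised with PLIER in Affymetrix Expression Console 1.4; the sources used here do not give the background correction, the normalization between arrays or the genome build. The deposited intensities were linear and were taken to log2(intensity + 16) without further normalization. Probe sets with a single symbol (233753 of 269751; 5106 had several and 30892 none) were combined per gene by their median. A filter at the 40th percentile of mean level (5.90) kept 13891 of 23152 genes, all 10 members among them. The contrast of KO with WT used lmFit and eBayes from limma 3.58.1, run in R 4.3.3 and two-sided, with Benjamini-Hochberg adjustment over all tested genes or all probe sets and a threshold of 0.05. The fit was checked on simulated gene values with differences larger than those of the members. It was not checked at differences of the members' size. Sample titles gave each array's group and number. The numbers were not treated as pairs of mice in the main fit. Correlations of deviations were 0.150, 0.169 and 0.0101 for same numbers and -0.189 to 0.092 for unlike numbers. These few values do not settle whether the numbers pair the mice.

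The named genes were Park7, Foxp3, Il2ra, the 10 members, the 3 genes of each pathway list with the smallest p (or those past the threshold) and the 5 nearest genes by profile. The members and lists were chosen with earlier results of these data known. List names were matched by symbol or RefSeq synonym (GRCm38.p6). Promoter matches were searched in RefSeq windows. Alternatives were offsets of 1 and 64, no filter or one at the 60th percentile, bright probe sets alone, probe set means, quantile normalization, median centring, other variance models, array weights, a replicate block, an adjusted p of 0.10 and leaving out each array.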

Additional observations from a re-analysis of the deposited data

How the results depend on the processing

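No member gene passed in any alternative run. The nearest was Fosb with array weights (0.65, SE 0.14, limma adjusted p = 0.0576). No member probe set passed under other offsets, quantile normalization, other variance models, the replicate block or an array left out. Probe sets were fitted without a filter, so the planned fit without one was not run for them. The count of members without overlap stayed between 5 and 8, and was 8 without WT replicate 3. Over all genes this share was 14.8% to 19.3% with all 6 arrays. With an array left out it rose to between 23.9% and 30.1% (27.7% without WT replicate 3). Fos, Fosb, Fosl2, Jun, Junb, Jund, Egr1 and Egr2 kept their sign in all 17 alternatives. Il2ra (-0.0013) was 0.0040 with the mean of probe sets, 0.0032 with quantile normalization, 0.10 with median centring and -0.070 to 0.050 with an array left out. Nr4a1 was 0.048 with median centring and -0.20 to 0.056 with an array left out, Ier2 -0.21 to 0.029. With the mean of probe sets Mkl2 was at -0.015 and Ppp3r1 at -0.088, and Ppp3r1 was at -0.10 with bright probe sets. The median of the members was 0.15 with median centring, which moved the median of all genes from -0.052 to 0.051, and 0.012 to 0.093 with an array left out. The count of 38 genes was 60 with the mean of probe sets, 125 with array weights, 74 at an adjusted p of 0.10 and 4 to 37 with an array left out (4 without WT replicate 1 or 2, 7 without WT replicate 3, 11 without KO replicate 3). With the replicate number as a block it was 67 and no member passed. With array weights 1 list gene passed, Batf. The cause of these shifts was not tested. The 3 mice per group limit what differences of this size can show.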
